A study of Mus musculus with 6 samples.

Results

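The nuclear lamina and its membrane partners were examined at the RNA level in muscle stem cells (MuSCs), which reside beside skeletal muscle fibres and rebuild them after injury, and which were profiled directly after isolation. The group was defined by name, as the genes Lmna, Lmnb1, Lmnb2, Lbr, Emd, Lemd3, Tmpo, Sun1, Sun2 and Banf1. All 10 were found among the 22081 genes of the expression table and all 10 passed the limit on low values, a mean of at least 5 normalized counts, as did 18562 genes in all. RNA-seq had been performed on 6 libraries, 3 labelled control and 3 labelled Taf4asKO. Both groups came from adult C57BL/6 mice. Per the reporting table of the study, both carried Taf4a fl/fl alleles, in which a pair of exons is flanked by loxP sites. Taf4asKO mice also carried the tamoxifen-inducible Pax7-CreERT allele (Pax7CE+/p), which acts in Pax7-expressing MuSCs, and received tamoxifen. Controls were littermates listed either without the Cre allele (Pax7CE+/+) or with it (Pax7CE+/p), with no tamoxifen treatment listed for them, and a Pax7-zsGreen reporter could be present or absent in both groups. Flow cytometry selected either cells with integrin alpha-7 and without SCA1, CD45 and CD31, which mark fibro-adipogenic, leukocyte and endothelial cells, or cells with the zsGreen reporter, and the gate of each library is not given. Neither the number of animals behind a library nor their exact genotype within these options is given. The study asked how TAF4A, a subunit of the transcription factor TFIID, acts on chromatin regulators, on acetylation of lamin A/C and on the stiffness of the nucleus.

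Lamins are intermediate filament proteins that form a meshwork under the inner nuclear membrane, where they carry mechanical load and hold heterochromatin at the nuclear edge. A-type lamins come from 1 gene and are made mainly in differentiated tissues, whereas B-type lamins are found in nearly all cells and stay attached to the membrane through a farnesyl anchor. Membrane proteins such as emerin, LAP2 and the lamin B receptor tie the lamina to chromatin, and SUN proteins connect it to the cytoskeleton through nesprins. RNA-seq reports transcript abundance only, so lamin protein, its acetylation and nuclear stiffness were not measured by these libraries, and lamin A and lamin C, which are splice forms of Lmna, share a single value here.

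The values are normalized counts, that is reads per gene divided by a scaling factor for each library and rounded. Library totals after scaling lay between 12338676 and 14551732, and log2 values correlated at 0.9611 to 0.9843 among libraries of a group and at 0.9454 to 0.9662 across groups. The targeted gene, listed as Taf4, stood at 613, 534 and 478 normalized counts in the control libraries, in order of replicate number, against 631, 565 and 574 for Taf4asKO (log2 fold change 0.13 ± 0.12, SE, limma adjusted p = 0.524). The total over this gene therefore did not separate the groups, which are named by their labels throughout. This total covers all exons, whereas recombination removes only the pair between the loxP sites. The study reports an almost complete loss of Taf4a transcript and protein in Taf4asKO MuSCs by RT-qPCR and western blot. Markers of other cells were present, and the reporting table of the study gives a purity of sorted cells that is short of complete. The 5 Schwann cell markers summed to 1273 to 3112 normalized counts in control and 3978 to 4902 in Taf4asKO libraries, and all 5 passed as higher. The 5 mural cell markers summed to 8642 to 13631 and 13611 to 15906, with 2 higher, and 4 higher with the replicate block. The 7 fibro-adipogenic markers summed to 55578 to 81780 and 33840 to 56144, a sum made up mainly of Col3a1 (means of 47010 and 15880) and Col1a1 (means of 16850 and 26860, adjusted p = 0.249 by limma). Of these markers Dpt and Col3a1 were lower, while the other 5 had positive log2 fold changes (median of the list 0.77), none passing as higher without the replicate block and 4 passing with it. The 6 endothelial markers summed to 195 to 471 and 490 to 828, the 3 listed leukocyte markers (Cd68, Lyz2 and Csf1r) to 422 to 538 and 666 to 924, and the 6 myofibre markers to 1193 to 3772 and 2141 to 2712, with none passing by limma without the replicate block (4 higher, 1 higher and 0 at an unadjusted p under 0.05). With the block 2 endothelial markers, 1 leukocyte marker and 0 myofibre markers passed as higher. The 8 MuSC markers summed to 35925 to 37449 and 36906 to 39879, with 3 lower and 2 higher. Of the 3 lower, Itga7 and Cdh15 no longer passed when any 1 Taf4asKO library was left out, whereas Myf5 still passed. Pax7 itself was present at 10363 to 13007 in every library. The part of these other cells in the results below was not tested. A fit with the mean of the fibro-adipogenic markers as a covariate cannot decide it, since these markers had log2 fold changes of opposite sign. In sorted bulk RNA, fewer cells with a transcript and less of it per cell cannot be told apart.

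Because TAF4A was studied together with NF-Y, a factor that binds the CCAAT motif, the proximal promoters of 2 members with contrasting content are shown. Both are the 250 bases before the RefSeq start (GRCm38.p6, mm10), on the minus strand, written 5′ to 3′, with the NF-Y core CCAAT or its reverse complement ATTGG and the GC box GGGCGG or CCGCCC in capitals.
Lmnb2, chr10:80918246-80918495: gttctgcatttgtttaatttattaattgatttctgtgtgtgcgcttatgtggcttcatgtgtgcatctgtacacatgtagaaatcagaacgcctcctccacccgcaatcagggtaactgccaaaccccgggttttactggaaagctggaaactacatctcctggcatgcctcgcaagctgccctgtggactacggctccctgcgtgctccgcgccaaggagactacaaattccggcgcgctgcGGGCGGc
Sun2, chr15:79742537-79742786: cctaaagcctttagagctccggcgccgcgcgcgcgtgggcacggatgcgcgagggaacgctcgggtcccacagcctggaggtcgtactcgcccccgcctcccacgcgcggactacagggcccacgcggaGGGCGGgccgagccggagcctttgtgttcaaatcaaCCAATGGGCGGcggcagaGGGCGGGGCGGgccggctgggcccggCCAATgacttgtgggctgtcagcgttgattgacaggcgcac
The Lmnb2 window, from the member with the lowest level in Taf4asKO relative to control, held 0 copies of the NF-Y core and 1 GC box just before the start. The Sun2 window held 2 NF-Y cores, at 85 and 41 bases before the start, and 4 GC boxes, of which 1 directly followed an NF-Y core and 2 overlapped each other; its GC content was 70.8%, against 52.8% for Lmnb2. No window was taken for Lmnb1. The other 9 of the 10 members had 14 windows in all from RefSeq. Of these windows, 9 held the NF-Y core and 10 the GC box, compared with 33.8% and 32.7% of 32851 mouse promoters of the same length. Some members had more than 1 window, and the 32851 promoters were not matched to the members in GC content or expression. The difference was not tested. The TATAAA box was found in 1 of the 14 and in 12.4% of all. A motif match is a description of the letters only, and binding was not measured here.

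The B-type lamins were the members that passed the test. Lmnb2 and Lmnb1 fell in the libraries labelled Taf4asKO, to 31.6% and 46.2% of the control mean, whereas none of the 10 members passed as higher. A gene passed with a limma adjusted p under 0.05, over all 18562 genes, and a fold change of at least 1.3. By this rule 2 of 10 members were lower, where 6.71% of all tested genes were, and 0 were higher, where 5.93% of all were. At an unadjusted p under 0.05 4 members were lower (14.2% of all tested genes) and 1 was higher (14.6%). The median log2 fold change of the members was -0.18, with 7 negative and 3 positive, and that of all tested genes was 0.0040. The Taf4asKO libraries lay wholly below control for 4 members (16.4% of all genes) and wholly above for 1 (16.6%), and overlapped control for the other 5. Libraries were also blocked by replicate number, which compares same-numbered libraries in a pairing that the labels do not state. With this block Lmna also passed, and the counts became 3 lower (8.98% of all genes) and 0 higher (9.09%).

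**Figure D1:**
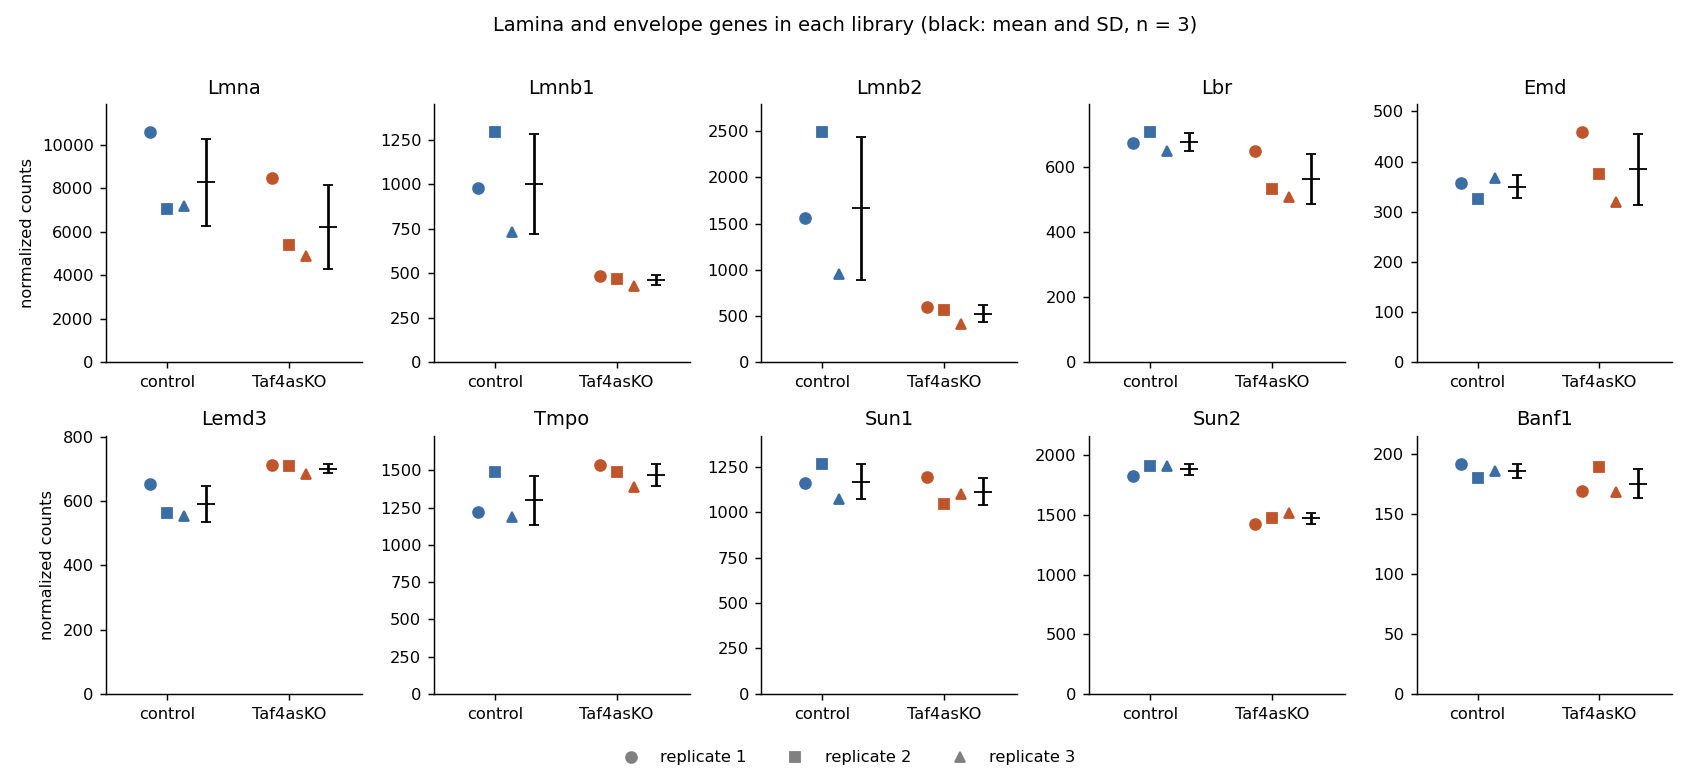
Normalized counts (vertical axes, from 0) of the 10 members in each library, with control in blue and Taf4asKO in orange, symbols giving the replicate number and black bars the mean and SD of 3 libraries. Lmnb1, Lmnb2, Lbr and Sun2 lie lower in every Taf4asKO library than in any control library, and Lemd3 lies higher.

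Lmnb2 encodes lamin B2, 1 of the 2 B-type lamins, and lies at chr10:80901203-80918245 (mm10, minus strand, ENSMUSG00000062075). It reached 1558, 2488 and 951 normalized counts in the control libraries numbered 1, 2 and 3, against 597, 563 and 420 in the Taf4asKO libraries. Every Taf4asKO library was below every control library, and control replicate 2 stood highest by a wide margin. The means were 1666 ± 774 (SD, n = 3) and 526.7 ± 93.9, a 3.16-fold difference. The log2 fold change was -1.57 ± 0.29 (SE, 95% confidence interval -2.20 to -0.93, limma adjusted p = 0.00688). Between same-numbered libraries, Taf4asKO stood at 38.3%, 22.6% and 44.2% of control. Without control replicate 2 the log2 fold change was -1.22 (limma adjusted p = 0.00943).

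Lmnb1 encodes lamin B1, the other B-type lamin, at chr18:56707813-56753424 (plus strand, ENSMUSG00000024590). Its normalized counts were 980, 1294 and 731 in control, against 487, 470 and 431 in Taf4asKO, in the same order. The groups did not overlap. Control replicate 2 was again the highest library and control replicate 3 the lowest of the controls, whereas the Taf4asKO libraries lay close together. The means were 1002 ± 282 and 462.7 ± 28.7 (SD, n = 3), which is 2.16-fold, with a log2 fold change of -1.08 ± 0.18 (SE, interval -1.48 to -0.68, limma adjusted p = 0.00453). Same-numbered libraries gave 49.7%, 36.3% and 59.0% of control. The value without control replicate 2 was -0.87 (limma adjusted p = 0.00581).

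The spread of both B-type lamin genes among the controls ran alongside that of proliferation genes. Transcripts of 14 proliferation markers summed to 2604, 4698 and 2049 normalized counts in control, against 1313, 1594 and 1054 in Taf4asKO. Control replicate 2 was thus the highest library there too. Among the Taf4asKO libraries the order differed, with replicate 2 highest for this sum and replicate 1 highest for Lmnb2 and Lmnb1. Of these 14, 7 were lower and 0 higher (11 lower and 1 higher at an unadjusted p under 0.05), with a median log2 fold change of -1.37. With the replicate block the counts were 10 lower and 1 higher. Mki67, a marker of cycling cells, had 1087, 2232 and 727 counts in control, against 250, 427 and 189 in Taf4asKO (log2 fold change -2.15, limma adjusted p = 0.00602). Cdk1, the mitotic kinase that phosphorylates lamins when the envelope opens, was lower by a log2 fold change of -2.07 (limma adjusted p = 0.0252), Top2a, a topoisomerase of dividing cells, by -1.72 (0.0121) and Ccna2, cyclin A2, by -1.56 (0.0336). Mki67 passed whichever library was left out but not with robust variance shrinkage. Leaving out control replicate 2 or Taf4asKO replicate 1 or 3 took Cdk1 (-2.29 to -1.45) and Ccna2 (-1.59 to -1.15) past the limit of adjusted p, and leaving out Taf4asKO replicate 3 did so for Top2a (-1.50, limma adjusted p = 0.0561). Ccnb2, Mcm2 and Mcm3 likewise did not pass without Taf4asKO replicate 3, so that of the 7 only Mki67 still passed there. The part of proliferation in the lamin values was not tested.

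Lmna, the gene of lamin A and lamin C (chr3:88481148-88503335, minus strand, ENSMUSG00000028063), had 10581, 7033 and 7206 normalized counts in control, against 8449, 5398 and 4869 in Taf4asKO. The groups overlapped, since Taf4asKO replicate 1 exceeded control replicates 2 and 3, and the library numbered 1 was the highest in both groups. The means were 8273 ± 2000 and 6239 ± 1930 (SD, n = 3), with a log2 fold change of -0.42 ± 0.21 (SE, interval -0.90 to 0.05), which did not pass (limma adjusted p = 0.221). Each Taf4asKO library was below the control library of the same number, at 79.9%, 76.8% and 67.6%. In the blocked fit the same log2 fold change had an SE of 0.09 and an interval of -0.62 to -0.22, and it passed (limma adjusted p = 0.00801). Without the block it lay between -0.66 (without Taf4asKO replicate 1) and -0.23 (without control replicate 1) when a library was left out, and did not pass in any of those 6 fits.

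The balance of the lamin genes was compared per exon length, since a longer transcript yields more reads. The ratio of Lmna to the sum of Lmnb1 and Lmnb2, each in normalized counts per kb of exon, was 2.61, 1.18 and 2.63 in control and 4.77, 3.19 and 3.43 in Taf4asKO. All Taf4asKO ratios were above all control ratios, with means of 2.14 ± 0.83 and 3.79 ± 0.85 (SD, n = 3). The mean log2 ratio was 0.89 higher, and the exact two-sided permutation test gave p = 0.1, the smallest that 3 against 3 libraries allow. Between same-numbered libraries the log2 ratio differed by 0.87, 1.43 and 0.38. Without control replicate 2, the library richest in B-type lamin transcripts, the log2 difference was 0.51. Among the B-type lamins, the ratio of Lmnb2 to Lmnb1 per kb was 1.1, 1.33 and 0.899 in control and 0.847, 0.828 and 0.673 in Taf4asKO, with no overlap between the groups.

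**Figure D2:**
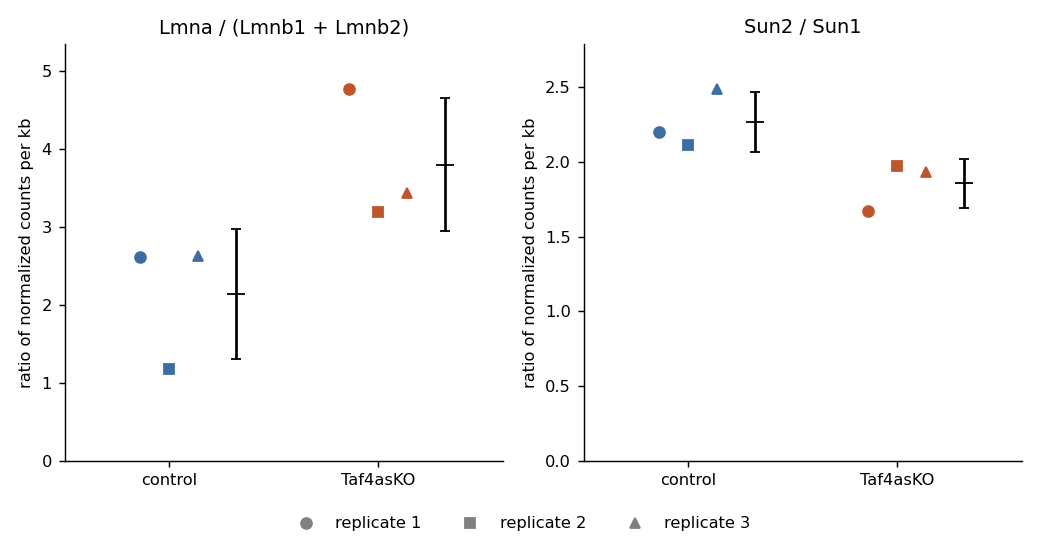
Ratios of normalized counts per kb of exon within each library (vertical axes, from 0), for Lmna over the sum of Lmnb1 and Lmnb2 and for Sun2 over Sun1, with symbols for the replicate number and bars for mean and SD of 3 libraries. The lamin ratio was 1.18 to 2.63 in control and 3.19 to 4.77 in Taf4asKO, and the Sun2 to Sun1 ratio was 2.11 to 2.49 and 1.67 to 1.97.

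SUN1 and SUN2 span the inner nuclear membrane and bind nesprins in the space between the membranes. Sun2 (chr15:79724070-79742536, minus strand, ENSMUSG00000042524) had 1825, 1910 and 1911 normalized counts in control, against 1422, 1474 and 1519 in Taf4asKO. The libraries of each group were tightly clustered and did not overlap, with means of 1882 ± 49.4 and 1472 ± 48.5 (SD, n = 3). The log2 fold change of -0.35 ± 0.09 (SE, interval -0.55 to -0.16) had a limma adjusted p of 0.0256, but at 1.28-fold the difference was under the 1.3-fold limit. An exon of the antisense gene Gm16575 shares 147 bases with Sun2 exons, and no source used here says whether reads were counted by strand. Sun1 (chr5:139200637-139249840, plus strand, ENSMUSG00000036817) had 1162, 1268 and 1075 counts in control, against 1193, 1047 and 1102 in Taf4asKO, with overlapping groups. Its log2 fold change was -0.07 ± 0.10 (SE, interval -0.30 to 0.16, limma adjusted p = 0.714). Per kb, the Sun2 to Sun1 ratio was 2.2, 2.11 and 2.49 in control and 1.67, 1.97 and 1.93 in Taf4asKO. Every Taf4asKO ratio was below every control ratio, and the log2 difference of -0.29 again reached the smallest p the design allows (p = 0.1, exact two-sided permutation test). After adjustment for GC content and exon length the log2 difference was -0.21 and the groups were no longer fully separated (exact permutation p = 0.2).

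The inner nuclear membrane proteins of the LEM family share a domain that binds BAF, the product of Banf1. Lemd3, also known as MAN1, which restrains SMAD signalling (chr10:120923413-120979332, minus strand, ENSMUSG00000048661), had 654, 563 and 554 normalized counts in control, against 711, 708 and 683 in Taf4asKO. It was the member whose Taf4asKO libraries all lay above control, at a log2 fold change of 0.25 ± 0.11 (SE, interval 0.01 to 0.49) that did not pass (limma adjusted p = 0.151). Tmpo, the gene of the LAP2 proteins (chr10:91147571-91171582, minus strand, ENSMUSG00000019961), had 1221, 1487 and 1188 counts in control, against 1535, 1490 and 1389 in Taf4asKO. The groups overlapped in 1 library each, and the log2 fold change was 0.19 ± 0.11 (SE, interval -0.06 to 0.43, limma adjusted p = 0.297). Emd, the gene of emerin on the X chromosome (chrX:74254687-74261548, plus strand, ENSMUSG00000001964), had 358, 325 and 368 counts in control, against 459, 375 and 320 in Taf4asKO. Taf4asKO replicates 1 and 3 were the highest and the lowest of the 6 libraries, and the log2 fold change was 0.12 ± 0.15 (SE, interval -0.20 to 0.45, limma adjusted p = 0.633). Without Taf4asKO replicate 1 its direction changed, to -0.01.

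Banf1 encodes barrier-to-autointegration factor, a small DNA-binding protein that bridges chromatin to LEM proteins (chr19:5364641-5366645, minus strand, ENSMUSG00000024844). Its normalized counts were 192, 180 and 186 in control and 169, 189 and 168 in Taf4asKO, with overlap through Taf4asKO replicate 2. The log2 fold change was -0.09 ± 0.13 (SE, interval -0.39 to 0.21, limma adjusted p = 0.721) and turned to 0.08 when libraries were adjusted for GC content and exon length. Exons of Banf1 share 428 bases with Eif1ad on the opposite strand. Lbr encodes the lamin B receptor, which binds B-type lamins and heterochromatin and also acts as a sterol reductase (chr1:181815335-181842379, minus strand, ENSMUSG00000004880). It had 672, 706 and 649 counts in control, against 648, 530 and 507 in Taf4asKO. The groups met without overlapping, 1 count apart between control replicate 3 and Taf4asKO replicate 1. The log2 fold change was -0.27 ± 0.12 (SE, interval -0.54 to -0.01) and did not pass (limma adjusted p = 0.161). Lbr exons overlap Dnah14 on the opposite strand over 440 bases and Gm26004 on the same strand over 69, Emd shares 343 bases with Gm14686 on its own strand, and Tmpo shares 244 bases with a gene of the opposite strand. Sun1 exons also overlap an opposite-strand gene. Lmna, Lmnb1, Lmnb2 and Lemd3 had no exon overlap with another gene.

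**Figure D3:**
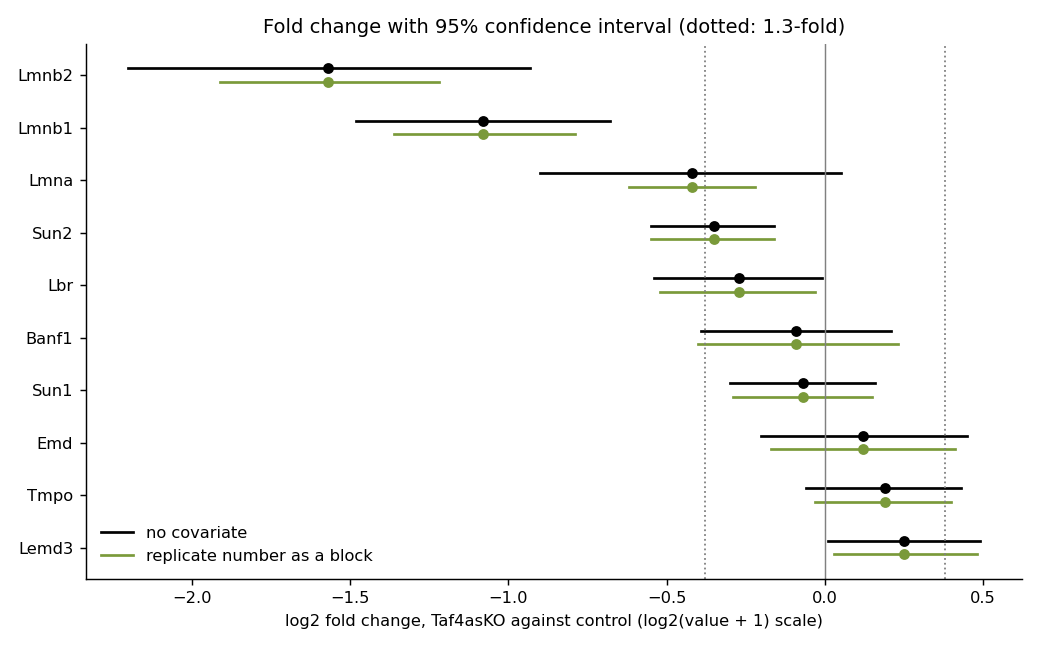
Log2 fold change of each member, Taf4asKO against control, on the log2(value + 1) scale (horizontal axis), with 95% confidence intervals from limma without a covariate (black) and blocked by replicate number (green), and dotted lines at 1.3-fold. The black intervals of Lmnb2 (-2.20 to -0.93) and Lmnb1 (-1.48 to -0.68) lie beyond the 1.3-fold line, and the interval of Lmna narrows with the block from -0.90 to 0.05 to -0.62 to -0.22.

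Per kb of exon, the order of levels among the members differed between the groups. In control, Lmna stood highest at 1420 ± 343 normalized counts per kb (SD, n = 3), followed by Lmnb2 at 389 ± 181, Sun2 at 347 ± 9.11 and Lmnb1 at 338 ± 95.2. These last 3 overlapped one another, whereas the lowest library of Lmnb1 (247) was above the highest of Sun1 (167). The other members lay between 154 ± 12.7 for Sun1 and 118 ± 14.9 for Tmpo, mostly with overlapping neighbours. In Taf4asKO, Lmna was again highest at 1070 ± 331, followed without overlap by Sun2 at 272 ± 8.96. Lmnb1, at 156 ± 9.69, overlapped Emd at 153 ± 27.8. Lmnb2, in second place in control, stood in eighth place at 123 ± 21.9, between Tmpo at 134 ± 6.8 and Lbr at 118 ± 15.9, and overlapped both.

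**Figure D4:**
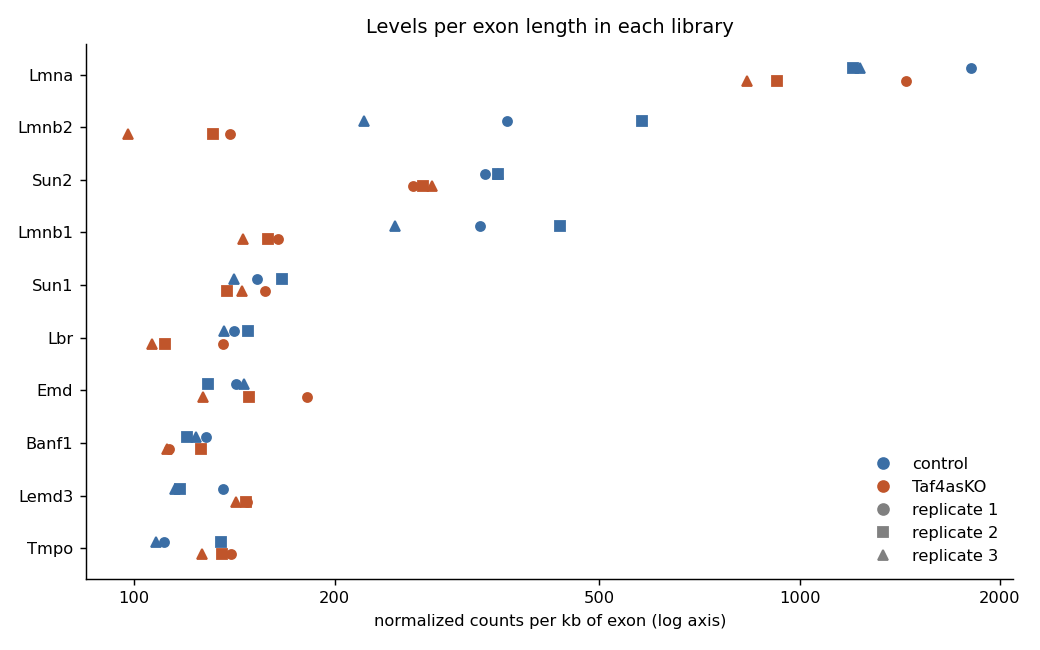
Normalized counts per kb of exon (horizontal log axis) of the 10 members in each library, control in blue and Taf4asKO in orange, ordered by the control mean. Lmnb2 moves from 222 to 580 in control to 98.0 to 139 in Taf4asKO, into the range of the least abundant members.

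Other genes of the envelope were grouped by role. Of 13 other genes listed for the inner nuclear membrane, a list that also holds proteins without a membrane anchor such as ANKLE1 and the torsins of the lumen, 1 was lower and 1 higher (4 lower and 2 higher at an unadjusted p under 0.05), with a median log2 fold change of -0.14. Tmem43, or LUMA, which binds emerin and lamins, had 583, 636 and 485 normalized counts in control, against 846, 774 and 743 in Taf4asKO (log2 fold change 0.48, limma adjusted p = 0.031). It passed only while control replicate 2 was the library left out among the 6 such fits (0.37 to 0.52 in the others). Ankle1, a LEM-domain nuclease, was at 9, 20 and 13 counts against 6, 3 and 2 (-1.71, limma adjusted p = 0.0478) and passed in none of those 6 fits (-2.05 to -1.43) and in 6 of all 16 made. Tmem201, or SAMP1, a membrane protein of the lamina, had 713, 1288 and 527 counts in control, against 480, 441 and 394 in Taf4asKO, with control replicate 2 highest as for the B-type lamins. Its log2 fold change of -0.84 did not pass (limma adjusted p = 0.0608). It passed in 5 of the 16 fits, with the replicate block among them (limma adjusted p = 0.00811). The torsin gene Tor1b (0.41, limma adjusted p = 0.0508) likewise did not pass, and it passed in 7 of the 16 fits, the blocked fit included (limma adjusted p = 0.0245).

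Genes of prelamin A processing, which were 5 genes of enzymes or their subunits and the binding partner Narf, had the highest median of the envelope lists, at 0.54, with 4 of 6 higher and 0 lower (4 higher and 1 lower at an unadjusted p under 0.05). Prelamin A and the B-type lamins are farnesylated and carboxymethylated, and prelamin A is then cleaved. Zmpste24, the protease that makes the final cut, had 284, 453 and 303 normalized counts in control, against 499, 554 and 572 in Taf4asKO (log2 fold change 0.67, limma adjusted p = 0.0296). Every Taf4asKO library was above every control library. Icmt, the methyltransferase, had 453, 458 and 371 counts against 632, 582 and 661 (0.55, limma adjusted p = 0.016). Fnta, the alpha subunit of farnesyltransferase, had 385, 450 and 346 against 557, 569 and 579 (0.54, limma adjusted p = 0.0185). The beta subunit Fntb did not pass, at 127, 126 and 131 against 81, 90 and 106 (-0.48, limma adjusted p = 0.0956), so the genes of the 2 subunits had log2 fold changes of opposite sign. Narf, which encodes a binding partner of prelamin A, had 251, 169 and 232 counts against 452, 356 and 355 (0.84, limma adjusted p = 0.0118), and the protease gene Rce1 did not pass (-0.32, limma adjusted p = 0.222). Leaving out a single Taf4asKO library took Icmt (0.51 to 0.60) and Fnta (0.52 to 0.55) over the limit of adjusted p whichever library it was. The same held for Zmpste24 (0.54 to 0.73), also without control replicate 1 or 3 and with adjustment for GC content and exon length (0.55), and for Narf only without Taf4asKO replicate 1 (0.73, limma adjusted p = 0.0569).

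Of the nesprins, which receive SUN proteins on the outer membrane, 4 were tested, with a median of -0.03. Of these, 1 was lower (2 lower and 0 higher at an unadjusted p under 0.05). Syne3, nesprin-3, which links to intermediate filaments, had 1047, 807 and 1115 normalized counts in control, against 699, 725 and 683 in Taf4asKO (log2 fold change -0.48, limma adjusted p = 0.0357). It passed without control replicate 2 and in none of the other 5 fits that left out a library (-0.50 to -0.39), and in 9 of all 16. Syne1 and Syne2, the giant nesprins, did not pass (-0.25 and 0.19). Among 30 nuclear pore genes 1 was lower and 1 higher (3 lower and 1 higher at an unadjusted p under 0.05), with a median of -0.05. Nup210, a pore membrane glycoprotein, had 964, 1172 and 987 counts in control, against 366, 364 and 369 in Taf4asKO (-1.50, limma adjusted p = 8.23e-05), a difference that passed in all 16 fits made. Ranbp2, the filament protein that binds RAN, had 4326, 4174 and 3730 against 6246, 5325 and 5290 (0.46, limma adjusted p = 0.0185), and did not pass without control replicate 3 or without any 1 of the Taf4asKO libraries (0.38 to 0.50), nor with adjustment for GC content and exon length (0.34). No gene passed by limma among 9 chromatin partners of the lamina (median 0.23, 2 higher at an unadjusted p under 0.05) or 9 genes of envelope sealing (median 0.14, 1 higher).

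**Figure D5:**
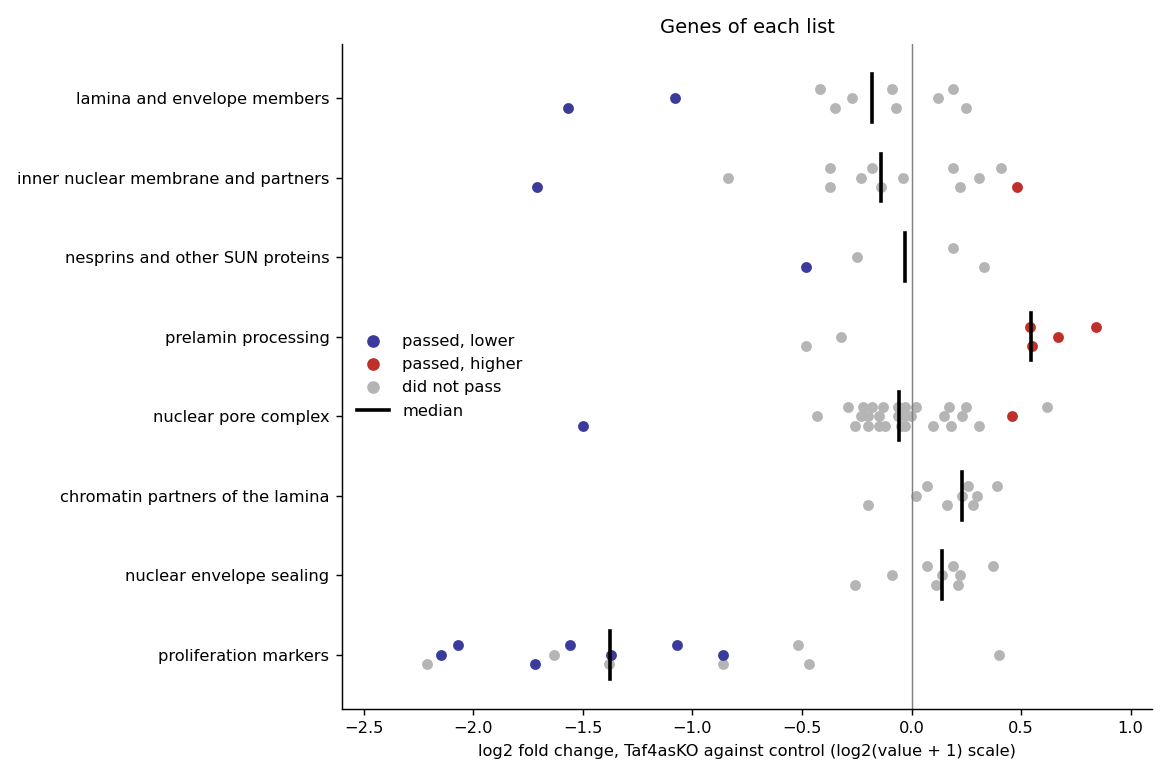
Log2 fold change of each tested gene (points; horizontal axis, log2(value + 1) scale), Taf4asKO against control, for the 10 members and 7 further gene lists, coloured by whether the gene passed as lower (blue) or higher (red), with a black bar at the median of each list. The medians are -0.18 for the members, 0.54 for prelamin processing and -1.37 for the proliferation markers, and Nup210 is the lowest of the pore genes at -1.50.

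The NSL complex, an acetyltransferase complex that the study relates to lamin A/C acetylation, had 1 of 8 genes lower and 1 higher. At an unadjusted p under 0.05 the counts were 2 lower and 1 higher. Its subunit gene Kansl2 fell by 0.62 on the log2 scale (limma adjusted p = 0.0352), a call lost without any 1 of the Taf4asKO libraries (-0.68 to -0.52). Ogt, a glycosyltransferase found in the complex, rose (0.66, limma adjusted p = 0.00451). Mcrs1 did not pass (-0.58, limma adjusted p = 0.0584) and passed in 4 of the 16 fits, including that with the replicate block (limma adjusted p = 0.0456). Kat8, the catalytic subunit, had 157, 209 and 159 normalized counts in control, against 156, 152 and 163 in Taf4asKO (-0.14, limma adjusted p = 0.598). These values sit beside the Lmna log2 fold change of -0.42, and any relation between them was not tested.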

How the data were processed

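Total RNA (10 ng per library) of sorted MuSCs was made into stranded libraries with a low-input kit. Per the labels and the study's methods, the authors trimmed reads with Trimmomatic 0.39, aligned them with STAR 2.6.0c to mm10, removed multi-mapping reads, counted reads over exons with featureCounts 1.6.0, leaving out reads over several genes, and normalized with DESeq2 1.14.1. The strand setting is not given in the sources used here. The deposited values are a score, namely normalized counts that the authors divided by size factors and rounded to whole numbers. The rounding was inferred from the values, so the read depth of each library is not known from these values, and no count model was run. The table had 0 value columns without a sample.

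Genes with a mean of at least 5 were tested (limma 3.58.1, R 4.3.3, eBayes with trend, two-sided) on log2(value + 1), which understates changes of low genes, with Benjamini-Hochberg adjustment over all 18562 genes. A gene passed when its adjusted p was below 0.05 and its change reached 1.3-fold, the limits of the study. Ratios were tested by exact permutation over libraries. Exon lengths, GC content and overlaps came from GENCODE M21, in which 99.8% of gene identifiers were found. Lmna, Lbr, Tmpo and Banf1 had other coordinates there than in the table, whose coordinates are printed. Promoters came from RefSeq, and entries on chromosome 18, where Lmnb1 lies, were not used. Nup42 and Nup58 were matched through synonyms, and Sun3, Sun5, Ptprc, Itgam and Cd3e were not in the table.

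Replicate numbers come from the sample titles, which name no shared litter or day. Deviations from the group means correlated at 0.235, 0.126 and 0.15 between same-numbered libraries and at -0.149 to 0.0141 between the others. On that basis the fits with the replicate block assumed that the numbers pair the libraries. These correlations come from the same values and from 3 libraries per group, so they cannot establish a pairing. The labels do not say that libraries are from separate animals, and p-values cover the spread between these libraries. The members and gene lists were chosen with earlier results of these data known. Named genes were the 10 members, Taf4, Kansl2, Mcrs1, Kat8 and up to 4 genes of each list with the largest changes past the threshold. Tmem201, Tor1b, Fntb, Rce1, Syne1, Syne2 and the cell markers given by name were added after their values were seen. Figures were drawn with matplotlib 3.10.9.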

Additional observations from a re-analysis of the deposited data

How the results depend on the processing

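Besides the fit reported, 15 alternatives were run for each member: the replicate block, total-count and upper-quartile scaling, a pseudocount of 0.1, no filter, adjustment for GC content and exon length with and without the block, a fibro-adipogenic marker covariate, robust variance shrinkage, and leaving out each of the 6 libraries. Lmnb1 (log2 fold change -1.28 to -0.87, limma adjusted p 0.000114 to 0.0269) and Lmnb2 (-1.92 to -1.22, 1.32e-05 to 0.0388) passed in all 16 fits. With the fibro-adipogenic marker covariate they were -1.06 and -1.54. That covariate was the mean of markers with log2 fold changes of opposite sign, so it cannot show the part of those cells. The members counted as lower were 3 with the replicate block, with that block and the GC and length adjustment together, and with upper-quartile scaling, and 2 in the other fits, and 0 were higher throughout. Lmna passed in both fits with the block (-0.42 and -0.38) and in no other, and Sun2 passed under upper-quartile scaling alone (-0.39), which shifted the median of all genes to -0.0284. The block changed no other member's call and moved the count of all genes passing as higher from 1101 to 1688. Of 150 member values under alternatives, 144 kept their direction and side of the threshold, 3 newly passed and 3 changed direction, and for these the cause was not tested. Banf1 was at 0.08 with the GC and length adjustment and at 0.08 with that adjustment and the block. Emd was at -0.01 to 0.25 when a library was left out, the change of direction coming without Taf4asKO replicate 1. The lamin ratio differed by 0.51 to 1.09 and the Sun2 to Sun1 ratio by -0.34 to -0.21 (log2) when a library was left out. Paired by number, both ratios gave an exact sign-flip p of 0.25, the smallest that 3 pairs allow. The lowest value of a member in a library was 168 normalized counts, and with 3 libraries per group the 95% interval reached beyond 1.3-fold for every member that did not pass except Sun1.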
